A study of Mus musculus with 12 samples.

Results

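The 10 genes described here belong to the Bcl2 family, which sets whether a cell keeps its mitochondria intact or starts to die. They were taken as the rows whose symbol is Bcl2a1a, Bcl2a1b, Bcl2a1d, Bcl2, Bcl2l1, Bcl2l2, Mcl1, Bcl2l11, Bid or Bad, and each symbol matched 1 row, so that 10 of 51826 identifiers in the forelimb table and 10 of 55401 in the culture tables are members. The members were chosen by a list drawn up with the measured values of these libraries known, namely their levels and their differences between culture conditions and between genotypes, so levels and differences of the 10 genes are given as descriptions and no p-value of a member is printed. Where members past a threshold are counted, the count is a description too.

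The study sequenced mRNA from mice in 12 libraries, 2 for each of 6 groups. Forelimbs came from E12.5 embryos (E, embryonic day), either wild type (WT) or Impdh2 Prx-cKO, in which Cre driven by Prx removes Impdh2 in limb mesenchymal progenitors. The Impdh2 enzyme makes a precursor of guanine nucleotides. Cultures came from bone marrow of WT and of Impdh2 LysM-cKO mice, in which the deletion is specific to the myeloid lineage that includes osteoclast precursors. The marrow cells first spent 3 days in medium with supernatant of L929 cells, which supplied M-CSF, a macrophage growth and survival factor, at an equivalent of 20 ng/ml. They were then reseeded and given 40 ng/ml RANKL, the cytokine that drives osteoclast formation. The culture groups are titled R0D3 and R40D3. All 8 culture libraries carry the same cell type and treatment labels, so that R0 and R40 are RANKL doses is inferred from the titles. The labels do not say how many animals a library holds or whether replicates came from separate animals, and p-values then measure only the spread between these libraries, which may be technical.

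As background, the proteins Bcl2, Bcl-xL (from Bcl2l1), Bcl-w (from Bcl2l2), Mcl1 and A1 (from the Bcl2a1 genes) hold the pore-forming proteins Bax and Bak in check at the mitochondrial outer membrane. The BH3-only proteins Bim (from Bcl2l11), Bid and Bad bind the survival proteins and so promote death, and Bim and cleaved Bid can also engage Bax and Bak directly. In the osteoclast lineage, M-CSF and RANKL are survival signals, Bim is known as a brake on osteoclast lifespan, and A1 is a short-lived survival protein of blood cells.

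In the mouse genome the A1 protein is encoded by near-identical gene copies on chromosome 9. The coding sequences of Bcl2a1a, Bcl2a1b and Bcl2a1d are each 516 bases long in GENCODE M21, with 97.9% identity between Bcl2a1a and Bcl2a1b, 98.6% between Bcl2a1a and Bcl2a1d and 98.8% between Bcl2a1b and Bcl2a1d. The first 90 coding bases hold 6 of the 12 coding positions at which any of the 3 differ. They are shown because a read within the coding sequence can tell copies apart only where it covers such a position. The transcripts also differ outside the coding sequence. Over whole transcripts identity was 97.9% between Bcl2a1a and Bcl2a1b, 93.7% between Bcl2a1a and Bcl2a1d and 93.9% between Bcl2a1b and Bcl2a1d. The sequences are from GRCm38, 5′ to 3′, with the 6 positions in capitals.
Bcl2a1a (chr9:88957051-88957140, + strand): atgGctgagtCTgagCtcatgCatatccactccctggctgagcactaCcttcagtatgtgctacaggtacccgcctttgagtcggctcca
Bcl2a1b (chr9:89199360-89199449, + strand): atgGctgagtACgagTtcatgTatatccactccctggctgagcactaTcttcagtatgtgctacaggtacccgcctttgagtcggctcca
Bcl2a1d (chr9:88731630-88731719, - strand): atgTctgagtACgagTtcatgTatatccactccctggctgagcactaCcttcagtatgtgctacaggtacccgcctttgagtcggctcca
Counted from the A of the start codon, with the Bcl2a1b base first, Bcl2a1a carries A11C, C12T, T16C, T22C and T48C in this stretch, and Bcl2a1d carries G4T and T48C. Of all 100-base windows of the annotated transcripts, 43.5% for Bcl2a1a, 31.1% for Bcl2a1b and 54.7% for Bcl2a1d occurred without a mismatch in another Bcl2a1 transcript. How the deposited counts divided such reads is not given in the sources used here, so the split among the 3 rows is uncertain, and counts of a few reads in Bcl2a1a or Bcl2a1d cannot be assigned to that copy with confidence.

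The copies also share the DNA upstream of the gene. The stretch below is the part of the RefSeq promoter entries (GRCm38.p6) that lies upstream of the annotated first exons and aligns among the 3 copies. It is shown because the 3 rows were counted at very different levels in the cultures. Capitals mark bases that differ or that are absent from Bcl2a1d.
Bcl2a1a (chr9:88956714-88956855, + strand): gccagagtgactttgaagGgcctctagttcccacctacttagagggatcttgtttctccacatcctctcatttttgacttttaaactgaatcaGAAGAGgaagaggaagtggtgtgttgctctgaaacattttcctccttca
Bcl2a1b (chr9:89199023-89199164, + strand): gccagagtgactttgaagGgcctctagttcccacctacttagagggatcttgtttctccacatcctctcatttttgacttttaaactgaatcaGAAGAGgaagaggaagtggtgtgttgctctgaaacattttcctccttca
Bcl2a1d (chr9:88731915-88732050, - strand): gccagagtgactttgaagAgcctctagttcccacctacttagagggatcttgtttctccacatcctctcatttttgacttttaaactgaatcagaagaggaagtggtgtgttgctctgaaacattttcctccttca
The stretches of Bcl2a1a and Bcl2a1b are the same in every letter, and that of Bcl2a1d has 1 base changed and lacks the 6 bases in capitals. The 300-base RefSeq windows ran from 250 bases before to 50 after each start and were searched on either strand. The AP-1 pattern TGANTCA (N, any base) was found in all 3 Bcl2a1 genes and in none of the other 7 members, against 7.81% of all 32851 windows. The ETS motif GAGGAAGT was found in the 3 Bcl2a1 genes and in Bad, against 3.20% of windows. In each printed stretch the match to TGANTCA reads tgaatca, so it rests on allowing any base, here A, at the open position. It is not read as an AP-1 site. The ETS match is present in each stretch too. Since the 3 copies share this stretch, their matches are not separate finds to set against these shares. The NF-kB motif GGANTTTCC and the E-box CACGTG were found in no member window, against 1.25% and 7.15% of all windows. None of the 4 motifs contains another. A match is a description of the sequence and says nothing about binding in these cells.

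Gene positions below are from GENCODE M21 on GRCm38. Depth ran from 28892215 to 69466572 counts in the forelimb libraries and from 16009146 to 19221865 in the cultures. Levels are given in CPM, read counts relative to the library total, with library sizes scaled by the TMM method, and comparisons between genes are made in CPM per kilobase of exon. Impdh2 itself was 260 and 272 CPM in the 2 WT forelimb libraries and 170 and 199 in Prx-cKO, a difference that did not pass the test (log2 fold change -0.53 ± 0.16 SE, adjusted p = 0.443, edgeR quasi-likelihood test, n = 2 per group). In R40D3 cultures Impdh2 was 25.7 and 27.7 CPM in WT and 7.72 and 8.38 in LysM-cKO (log2 fold change -1.73 ± 0.15, adjusted p = 0.0386), and in R0D3 cultures 22.3 and 28.2 against 7.36 and 7.03 (-1.81 ± 0.16, adjusted p = 0.0323). Both culture calls were lost when any 1 of the compared libraries was left out, with log2 fold changes of the same sign. The summed level of 10 osteoclast markers was 325 to 471 CPM in R0D3 libraries, with Calcr at 0 counts, and 13189 to 38759 CPM in R40D3 libraries, so the R0D3 libraries labelled osteoclast were low in osteoclast transcripts. The sum of 8 macrophage markers was 25067 to 44758 CPM at R0D3 and 19173 to 28514 CPM at R40D3. Because these are bulk libraries, fewer cells of a type and less RNA per cell cannot be told apart.

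**Figure D1:**
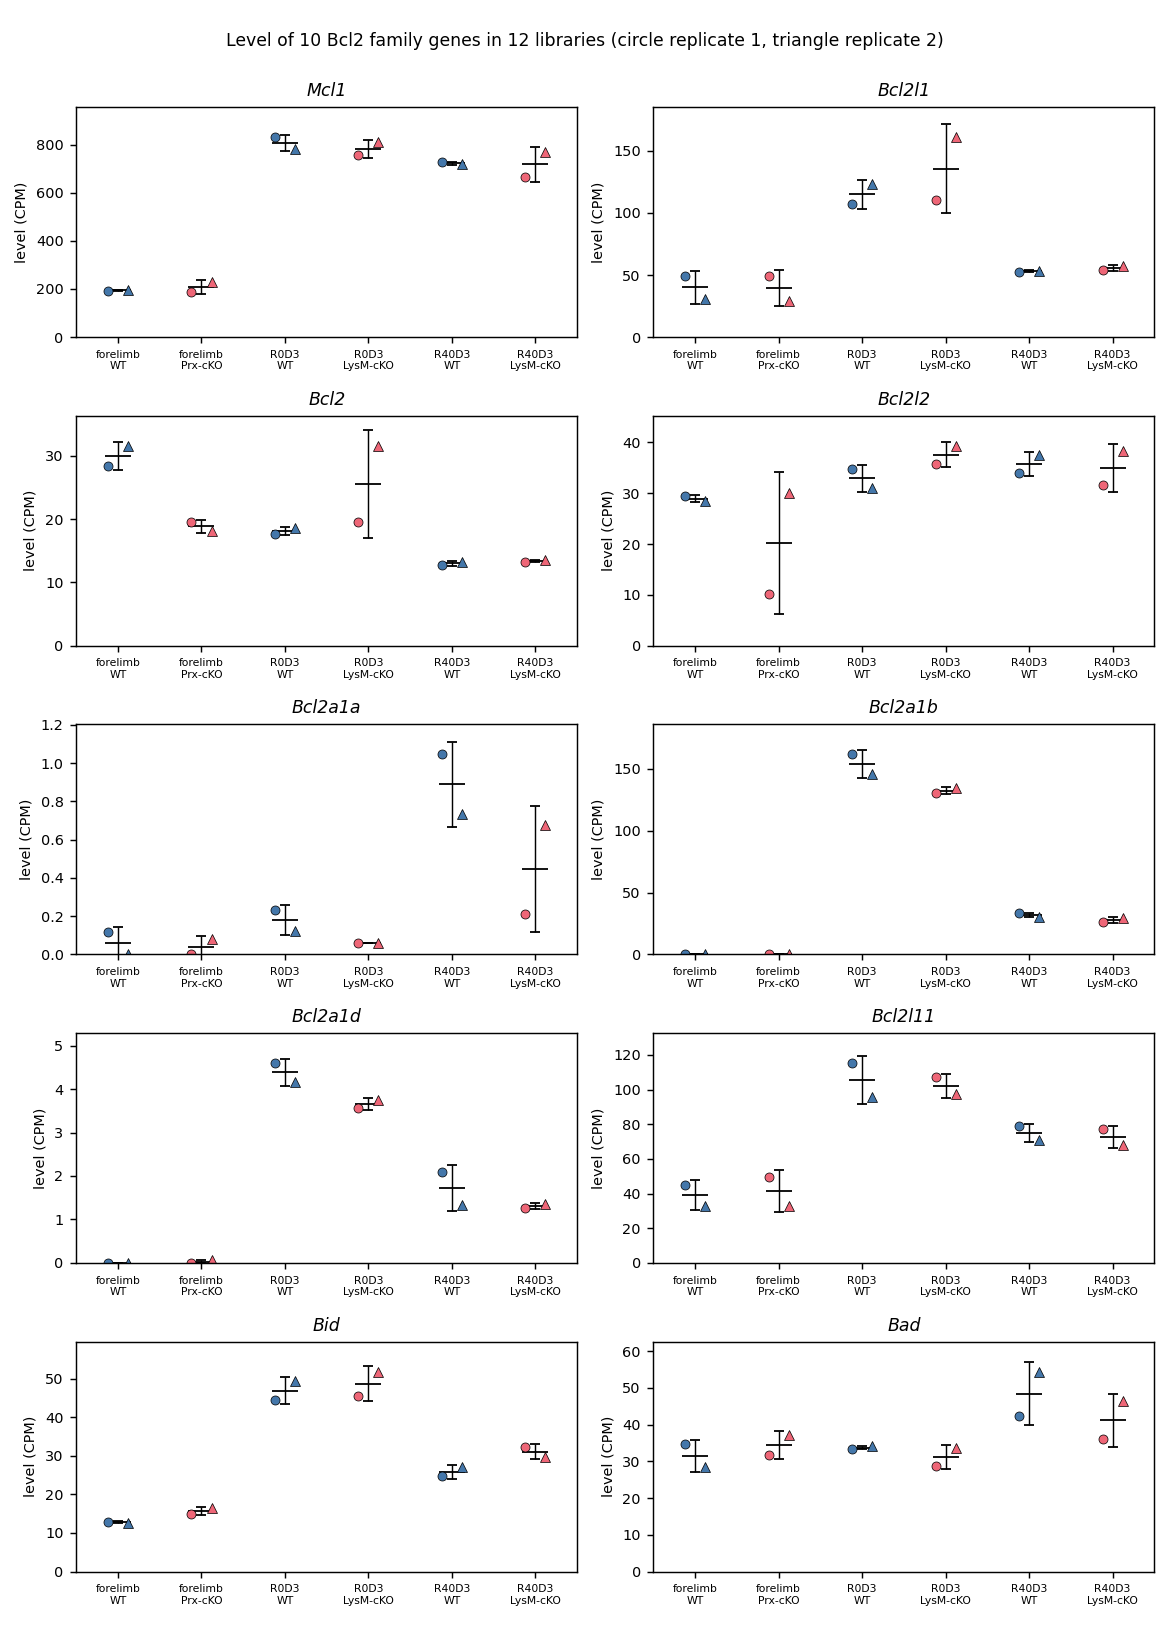
Level of each of the 10 genes in CPM (vertical axes, linear from 0, a scale of its own per gene) in the 6 groups; circles are replicate 1, triangles replicate 2, bars the mean ± SD, blue WT and red knockout. Bcl2a1b lies between 131 and 162 CPM at R0D3 and between 25.8 and 33.1 at R40D3, and Bcl2l2 in the Prx-cKO forelimb has libraries at 10.3 and 30.0.

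Mcl1 was the most abundant survival transcript per kilobase in all 6 groups, and the gene next to it in rank differed by tissue. In WT forelimb Mcl1 stood at 56.8 ± 0.81 CPM per kb (SD, n = 2), followed by Bad at 12.3 ± 1.72, Bcl2l1 at 8.72 ± 2.91, Bcl2l2 at 6.47 ± 0.16, Bcl2l11 at 4.86 ± 1.08, Bid at 3.59 ± 0.07 and Bcl2 at 3.27 ± 0.24. The 3 Bcl2a1 rows were at or below 0.20 CPM per kb there. In WT R0D3 cultures Mcl1 was at 236 ± 10.3 CPM per kb and Bcl2a1b came next at 188 ± 13.7, with Bcl2l1 below it at 25.1 ± 2.52. Bid, Bad and Bcl2l11 lay close together below them, at 13.2, 13.2 and 13.1 CPM per kb, and their libraries overlapped. In WT R40D3 cultures Mcl1 was at 211 ± 1.52, Bcl2a1b at 38.9 ± 2.27 and Bad below them at 18.9 ± 3.34 CPM per kb. Bcl2l2 (8.01 ± 0.54) and Bid (7.30 ± 0.51) were neighbours whose libraries overlapped in that group. Bcl2 ranked 9 of 10 in all 4 culture groups, at 1.42 to 2.79 CPM per kb.

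Between R0D3 and R40D3 cultures the make-up of the 7 survival transcripts differed mainly in the shares of the Bcl2a1 rows and of Mcl1. Shares of the same sum depend on each other. The higher Mcl1 share at R40D3 came with a WT level of 211 CPM per kb, against 236 at R0D3. In R0D3 cultures the Bcl2a1 rows made up 42.5% and 41.0% of the summed CPM per kb in WT and 39.1% and 37.2% in LysM-cKO, and Mcl1 made up 50.7% to 52.7%. In R40D3 cultures the Bcl2a1 rows made up 16% and 14.6% in WT and 13.4% and 13.3% in LysM-cKO, and Mcl1 76.6% to 78.8%. The sum of the 7 transcripts was 480 and 448 CPM per kb in WT at R0D3 and 277 and 272 at R40D3, and in LysM-cKO it was 419 and 453 at R0D3 and 249 and 286 at R40D3. The sum of the 3 BH3-only transcripts moved less, from 40.0 and 39.1 to 33.3 and 37.8 CPM per kb in WT, and from 37.4 and 39.8 to 32.8 and 35.0 in LysM-cKO. In forelimb libraries Mcl1 made up 73.0% to 81.0% of the survival sum, Bcl2l1 7.69% to 15.2%, Bcl2l2 3.26% to 8.59%, Bcl2 2.41% to 4.64%, and the Bcl2a1 rows at most 0.72%.

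**Figure D2:**
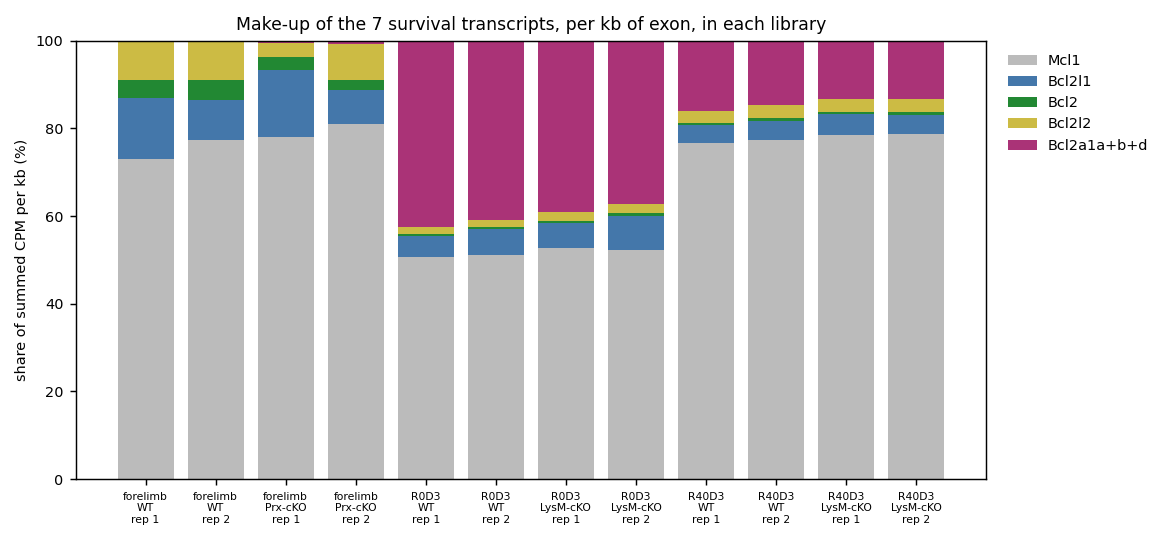
Share of each survival transcript in the sum of all 7, in percent of CPM per kb of exon (vertical axis), for each of the 12 libraries (horizontal axis). The Bcl2a1 rows together take 37.2% to 42.5% in the R0D3 libraries and 13.3% to 16% in the R40D3 libraries.

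Between R0D3 and R40D3 cultures, Bcl2a1b, Bcl2l1, Bcl2a1d, Bid and Bcl2l11 were lower at R40D3 in both genotypes, by 4.84-fold down to 1.41-fold and without overlap of the libraries, while the Bcl2l2 libraries overlapped in both genotypes. Of the 10 members, 6 passed the threshold of adjusted p under 0.05 in WT, 5 lower and 1 (Bcl2a1a, on few counts) higher, where 16.9% of all 14030 genes tested passed (11.4% higher and 5.52% lower). In LysM-cKO 6 of 10 passed, all lower, where the share was 10.1% (6.99% higher and 3.15% lower). The R0D3 and R40D3 libraries did not overlap for 9 of 10 members in WT and 8 of 10 in LysM-cKO, where 62% and 49.8% of all genes did not. Since this contrast was used in choosing the genes, nothing is read from these counts. The median log2 fold change was -0.49 over the members in WT, against 0.01 over all genes tested, and -0.57 in LysM-cKO, again against 0.01. For the same reason nothing is read from these medians. The 2 genotypes share no library in this contrast.

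Among the survival genes, Bcl2a1b (chr9:89199209-89207827, + strand) was 162 and 146 CPM in the WT R0D3 libraries, 131 and 134 in LysM-cKO R0D3, 33.1 and 30.5 in WT R40D3, and 25.8 and 29.2 in LysM-cKO R40D3. The R0D3 and R40D3 libraries did not overlap, and R40D3 was lower in each of the 2 replicate tables. The log2 fold change was -2.27 ± 0.10 (SE) in WT and -2.27 ± 0.10 in LysM-cKO. The counts of Gm29094, a gene on the same strand that shares 401 of the 817 exonic bases of Bcl2a1b, were at most 32 in any library, against 474 to 2779 for Bcl2a1b in the cultures.

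Bcl2a1d (chr9:88723285-88731914, - strand), counted at a far lower level, was 4.60 and 4.17 CPM in WT R0D3, 3.56 and 3.76 in LysM-cKO R0D3, 2.09 and 1.34 in WT R40D3 and 1.27 and 1.36 in LysM-cKO R40D3. It was lower at R40D3 without overlap (log2 fold change -1.33 ± 0.26 in WT and -1.48 ± 0.28 in LysM-cKO). Bcl2a1a (chr9:88956900-88962419, + strand) held 4 and 2 counts in WT R0D3, 20 and 12 in WT R40D3, 1 and 1 in LysM-cKO R0D3, and 4 and 11 in LysM-cKO R40D3. The ratio of summed counts per library size, R40D3 to R0D3, was 5.0 in WT (95% exact interval 2.06 to 14.6) and 7.23 in LysM-cKO (1.68 to 65.2), intervals that cover counting error only. Bcl2a1a passed the filter on low counts only through the group in which it is high, and reads of a few counts cannot be assigned to this copy with confidence, so no direction is read from these ratios. Its call in WT was absent with DESeq2 and with any 1 of the 4 compared libraries left out. Bcl2a1b held 97.1% and 97.2% of the Bcl2a1 counts in the WT R0D3 libraries, and 91.3% and 93.6% in WT R40D3. With all 4 annotated Bcl2a1 rows summed, Bcl2a1c among them, the log2 fold change was -2.20 in WT and -2.22 in LysM-cKO.

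Bcl2l1, the Bcl-xL gene (chr2:152780668-152831728, - strand), was 107 and 123 CPM in WT R0D3 and 52.8 and 53.5 in WT R40D3. In LysM-cKO it was 110 and 161 at R0D3 and 53.9 and 57.0 at R40D3. All 4 R40D3 libraries were therefore below all 4 R0D3 libraries (log2 fold change -1.11 ± 0.17 in WT and -1.29 ± 0.17 in LysM-cKO). Bcl2, the founding member of the family (chr1:106538178-106714274, - strand), was 17.7 and 18.5 CPM in WT R0D3, 12.7 and 13.3 in WT R40D3, 19.5 and 31.6 in LysM-cKO R0D3, and 13.3 and 13.5 in LysM-cKO R40D3. Its log2 fold change was -0.48 ± 0.22 in WT and -0.93 ± 0.21 in LysM-cKO. The latter was -1.25 without LysM-cKO R0D3 replicate 1, -0.54 without R0D3 replicate 2, -0.92 without R40D3 replicate 1 and -0.98 without R40D3 replicate 2. LysM-cKO R0D3 replicate 2 was also the highest library for Bcl2l1. It and LysM-cKO R40D3 replicate 2 had the lowest summed levels of 6 stromal fibroblast markers, 478 and 407 CPM against 1150 to 1543 in the other 6 cultures. The part of this difference in the Bcl2 and Bcl2l1 values was not tested.

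Mcl1, whose protein turns over quickly (chr3:95658788-95663176, + strand), was 831 and 782 CPM in WT R0D3, 726 and 719 in WT R40D3, 755 and 810 in LysM-cKO R0D3, and 667 and 770 in LysM-cKO R40D3. The WT libraries did not overlap and the LysM-cKO libraries did. The log2 fold change was -0.16 ± 0.11 in WT and -0.12 ± 0.11 in LysM-cKO. Bcl2l2, the Bcl-w gene (chr14:54883377-54888234, + strand), ranged from 31.0 to 39.4 CPM over the 8 cultures, with log2 fold changes of 0.12 ± 0.13 and -0.11 ± 0.13 and overlapping groups in both genotypes.

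Among the BH3-only genes, Bid (chr6:120891930-120916853, - strand) was 44.4 and 49.3 CPM in WT R0D3 and 24.6 and 27.2 in WT R40D3, and 45.5 and 51.8 against 32.4 and 29.6 in LysM-cKO. The groups did not overlap (log2 fold change -0.86 ± 0.12 in WT and -0.65 ± 0.11 in LysM-cKO). Bcl2l11, the Bim gene (chr2:128126038-128162547, + strand), was 115 and 95.5 CPM in WT R0D3, 78.8 and 71.1 in WT R40D3, 107 and 97.3 in LysM-cKO R0D3, and 77.0 and 68.3 in LysM-cKO R40D3. Its log2 fold change was -0.49 ± 0.12 in both genotypes, again without overlap. Bad (chr19:6941861-6951899, + strand) went the other way, with 33.4 and 34.1 CPM in WT R0D3, 42.4 and 54.5 in WT R40D3, 28.8 and 33.5 in LysM-cKO R0D3, and 36.1 and 46.3 in LysM-cKO R40D3. Its groups did not overlap in either genotype (log2 fold change 0.52 ± 0.17 and 0.40 ± 0.17). With the replicate number as a block its values were 0.51 ± 0.10 and 0.40 ± 0.10, and the count of members past the threshold became 7 of 10 in each genotype with Bad added, where 28.3% of all genes passed in WT and 21.3% in LysM-cKO. With only the 4 compared libraries fitted, and no block, the count was 8 in WT, with Bad and Bcl2 added, and 2 in LysM-cKO. The calls over all genes moved the same way, from 2367 to 2796 in WT and from 1422 to 533 in LysM-cKO. Bid shares 628 of its 3550 exonic bases with Bcl2l13 on the opposite strand, and Bad shares 524 of 2558 with Gpr137, so reads of these pairs could be mixed if strand was not used in counting.

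**Figure D3:**
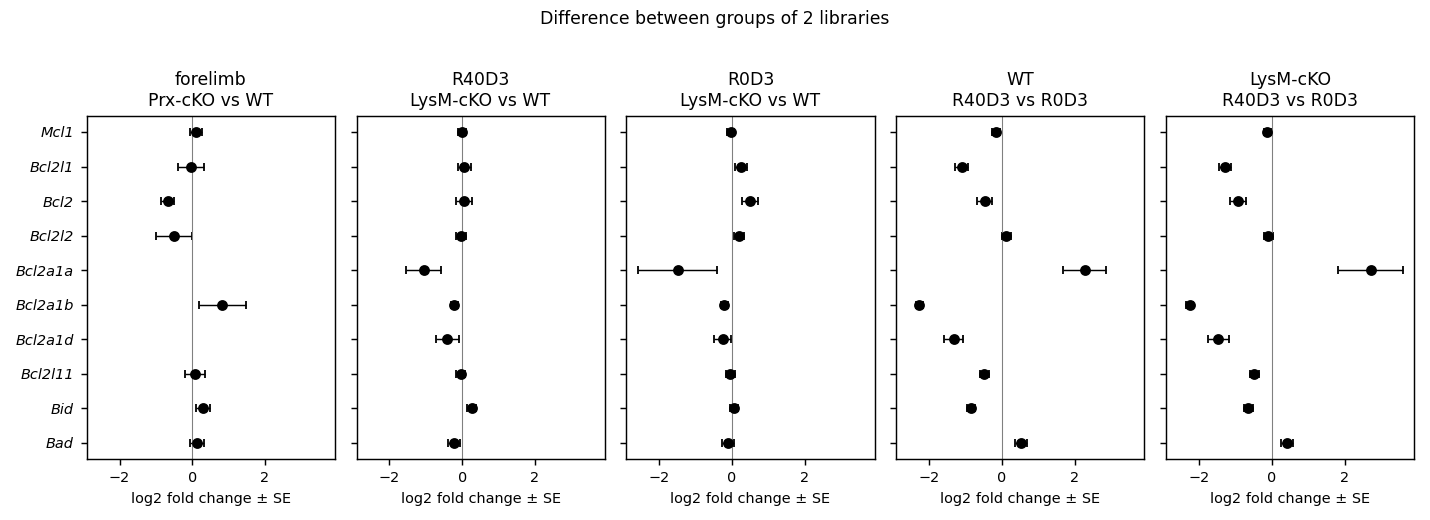
Log2 fold change ± SE (horizontal axes) of each of the 10 genes (rows) in the 5 comparisons of 2 against 2 libraries. Bcl2a1b lies at -2.27 in both R40D3 against R0D3 comparisons, Bcl2 at -0.67 in the forelimb, and Bcl2a1a and Bcl2a1d were too low to be tested in the forelimb.

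Fewer members, and fewer of all genes, were called in either genotype when 1 of the compared libraries was left out. Without LysM-cKO R40D3 replicate 1 the members called included Bcl2a1a, on few counts, which was not called with all libraries. No member changed sign in its called comparison when a library was left out. Over all the alternative fits, only Bcl2a1b and Bcl2l1 were called in both genotypes in every fit that held them. Bid, Bcl2a1d and Bcl2l11 lost their call in some fits in at least 1 genotype, as did Bcl2 in LysM-cKO.

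Of 16 other Bcl2 family genes 11 were tested between R0D3 and R40D3, and 2 rose and 1 fell in each genotype, where 16.9% of all genes passed in WT and 10.1% in LysM-cKO. In WT the calls fell to 0 without R0D3 replicate 1 or R40D3 replicate 2 and to 1 without either of the other libraries, and in LysM-cKO they fell to 0 without replicate 2 of either group. With the replicate block these were 4 and 3 in WT and 3 and 2 in LysM-cKO. Pmaip1, which encodes the BH3-only protein Noxa that binds Mcl1, was 12.1 ± 1.66 CPM in WT R0D3 and 29.4 ± 4.25 in WT R40D3 (log2 fold change 1.28 ± 0.27, adjusted p = 0.0173, edgeR quasi-likelihood test, n = 2 per group). Bcl2l13 rose in both genotypes (0.54 ± 0.11, adjusted p = 0.0151 in WT and 0.46 ± 0.11, adjusted p = 0.0418 in LysM-cKO by edgeR), and Bnip3l, a mitophagy receptor, fell in WT (-0.40 ± 0.09, adjusted p = 0.0235). In LysM-cKO the BH3-only gene Bmf rose from 21.8 ± 5.69 to 40.0 ± 1.16 CPM (0.87 ± 0.17, adjusted p = 0.0211), and Bik fell from 3.39 ± 1.46 to 0.885 ± 0.578 CPM (-1.97 ± 0.50, adjusted p = 0.0499). Bax, a pore-forming effector named here after its values were seen, was 133 and 158 CPM in WT R0D3 and 109 and 113 in WT R40D3 and did not pass (-0.40 ± 0.12, adjusted p = 0.0711 by edgeR) except with the replicate block (adjusted p = 0.00513) and in DESeq2 (adjusted p = 0.0434).

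In the mitochondrial death pathway and its inhibitors, 7 of 24 genes rose and 0 fell in WT, where 11.4% of all genes rose and 5.52% fell. In LysM-cKO 5 rose and 0 fell, where 6.99% of all genes rose and 3.15% fell. With the replicate block 9 rose and 1 fell in WT, where 28.3% of all genes passed. In LysM-cKO the block gave 8 and 1, where 21.3% of all genes passed. For the 24 genes the median log2 fold change was 0.26 (WT) and 0.12 (LysM-cKO), against 0.01 over all genes in each. Birc3, which encodes the ubiquitin ligase cIAP2, was 51.4 and 50.4 CPM in WT R0D3 and 113 and 109 in WT R40D3 (2.17-fold, SE 0.11 on the log2 scale, adjusted p = 0.000992, edgeR, n = 2 per group), and it rose by 2.57-fold in LysM-cKO (SE 0.11, adjusted p = 0.000909). The initiator caspase gene Casp8 rose by 0.55 and 0.45, Aifm1, a mitochondrial flavoprotein gene, by 0.90 and 0.85, the outer-membrane channel gene Vdac1 by 0.86 and 0.66, and the cytochrome c gene Cycs by 2.05 and 1.49, in WT and LysM-cKO respectively. Among 18 regulators of the family, 4 rose and 3 fell in WT, where 16.9% of all genes passed. In LysM-cKO 2 rose and 0 fell, where 10.1% of all genes passed. With the replicate block these were 5 and 4 in WT and 2 and 2 in LysM-cKO, against 28.3% and 21.3% of all genes. Nfkb2 and Relb, which encode the subunits of the non-canonical NF-kB pathway, rose in both (Nfkb2 1.19 ± 0.11, adjusted p = 0.000883 in WT and 1.27 ± 0.11, adjusted p = 0.00118 in LysM-cKO; Relb 0.87 ± 0.14, adjusted p = 0.00614 and 0.97 ± 0.14, adjusted p = 0.00699, by edgeR). Mapk8 also rose in WT (0.67 ± 0.14), and Stat5b (-0.40 ± 0.08) and Foxo3 (-0.46 ± 0.12), a transcription factor known to activate Bcl2l11, fell in WT. Birc3, Aifm1 and Nfkb2 passed in both genotypes whichever compared library was left out, while each other gene named here from the 3 lists lost its call in at least 1 genotype when some 1 library was left out, Bcl2l13 in LysM-cKO with a log2 fold change of 0.29 without R40D3 replicate 2. Cycs has many processed pseudogenes, which could share its reads.

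Between LysM-cKO and WT cultures none of the 10 genes passed at either condition. At R40D3, 0 of 10 members passed, where 0.0143% of all genes did (2 of 14030), and at unadjusted p under 0.05 the count of members was 0, where 7.47% of all genes were. At R0D3, 0 of 10 passed, where 0.0143% of all genes did, and 1 member was under an unadjusted p of 0.05, where 4.42% of all genes were. DESeq2 called 0 members in both. The LysM-cKO and WT libraries did not overlap for 5 members at R40D3, 3 higher and 2 lower in LysM-cKO, where 38.7% of all genes did not overlap, and for 5 at R0D3, 2 higher and 3 lower, where the share was 32.3%. The comparisons with R0D3 and R40D3 reuse the same libraries.

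Bcl2a1b was lower in LysM-cKO at both conditions without overlap, by 1.16-fold (log2 fold change -0.21 ± 0.10 at R40D3 and -0.22 ± 0.10 at R0D3). The summed macrophage markers, Lyz2 among them, were also lower in LysM-cKO. They were at 25067 and 25456 CPM against 39439 and 44758 in WT at R0D3, and 21507 and 19173 against 28029 and 28514 at R40D3. A sum of 8 myeloid markers that holds Csf1r, Cd68 and C1qa too but not Lyz2 differed less. It was 8885 and 8601 CPM in LysM-cKO against 9246 and 9373 in WT at R0D3. At R40D3 it was 8819 and 8013 against 9143 and 8692, with overlap. The part of either sum in the Bcl2a1b values was not tested. Bcl2a1a was lower by -1.06 ± 0.48 on the log2 scale at R40D3, on 15 counts against 32, a difference that was -0.38 when replicate 1 of LysM-cKO was left out and -2.07 when its replicate 2 was. It passed the filter only through WT R40D3, the group in which it is high. Bcl2 was higher in LysM-cKO at R0D3 (0.50 ± 0.21), a difference that was 0.11 without LysM-cKO R0D3 replicate 2, and it was 0.04 ± 0.22 at R40D3. Bid was higher at R40D3 (0.26 ± 0.12) and overlapped at R0D3 (0.05 ± 0.11). The summed osteoclast markers at R40D3 were lower in LysM-cKO without overlap, at 13189 and 24833 CPM against 26292 and 38759 in WT, and their part in the R40D3 values of the members was not tested. The log2 fold changes of Mcl1 (-0.01 ± 0.11 and -0.04 ± 0.11), Bcl2l11 (-0.04 ± 0.12 and -0.05 ± 0.12) and Bcl2l2 (-0.03 ± 0.13 and 0.19 ± 0.13) at R40D3 and R0D3 lay between -0.05 and 0.19. None of the tested genes of the 3 other lists passed in these comparisons by edgeR or DESeq2, and at each condition 1 of 11 other family genes and 1 of 24 pathway genes was under an unadjusted p of 0.05, as were 0 of 18 regulators at R40D3 and 1 of 18 at R0D3, against 7.47% of all genes at R40D3 and 4.42% at R0D3.

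In the forelimb, 8 of the 10 genes passed the filter on low counts, and 0 of the 8 were called, where 0% of all 19987 genes tested were called by edgeR and 1.97% by DESeq2. DESeq2 called 0 members too, and 1 member was under an unadjusted p of 0.05 in edgeR, where 10.5% of all genes were. Without WT replicate 1 edgeR called 603 of all genes, and without WT replicate 2 it called 104, with 0 members among them in each case. Prx-cKO and WT libraries did not overlap for 3 of the 8, 2 higher and 1 lower, where 43.2% of all genes did not overlap. The median log2 fold change was 0.09 over the 8 members and -0.03 over all genes.

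Bcl2 was 28.4 and 31.5 CPM in WT forelimb and 19.6 and 18.2 in Prx-cKO. Both Prx-cKO libraries were below both WT libraries, and the log2 fold change was -0.67 ± 0.18, with a range of -0.78 to -0.58 when 1 library was left out. Bid was 12.9 and 12.6 CPM in WT and 14.9 and 16.5 in Prx-cKO (0.30 ± 0.20), higher without overlap. Bcl2a1b held 5 and 15 counts in WT and 7 and 18 in Prx-cKO, or 0.118 and 0.209 against 0.244 and 0.352 CPM (0.83 ± 0.64). The sum of 8 markers of blood myeloid cells in the limb was 48.2 and 43.5 CPM in WT and 83.5 and 73.7 in Prx-cKO, and its part in the Bcl2a1b values was not tested. Bcl2a1a held 5 and 0 counts in WT and 0 and 4 in Prx-cKO, and Bcl2a1d 0 and 0 in WT and 0 and 3 in Prx-cKO. A count of 0 allows up to 3 counts, which is 0.0418 to 0.104 CPM in these libraries, so no difference in these copies was detectable at this depth.

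Bcl2l2 was 29.4 and 28.4 CPM in WT and 30.0 in Prx-cKO replicate 2, but 10.3 CPM, from 295 counts, in Prx-cKO replicate 1. Of 10478 genes whose mean in Prx-cKO reached 10 CPM, 0.821% had libraries as far apart as this. Its log2 fold change of -0.51 ± 0.49 became 0.07 when Prx-cKO replicate 1 was left out, and -1.49 when replicate 2 of that group was left out. Gm20521, which shares 594 of the 4462 exonic bases of Bcl2l2 on the same strand, held 51 and 88 counts in Prx-cKO and 148 and 157 in WT. Bcl2l1 and Bcl2l11 were both higher in replicate 1 of each genotype. Bcl2l1 was 49.4 and 30.5 CPM in WT and 49.4 and 29.0 in Prx-cKO (log2 fold change -0.03 ± 0.35), and Bcl2l11 was 45.2 and 32.9 in WT and 49.8 and 32.8 in Prx-cKO (0.08 ± 0.28). Mcl1 was 192 and 196 CPM in WT and 188 and 228 in Prx-cKO (0.10 ± 0.16), and Bad 34.6 and 28.4 in WT and 31.9 and 37.1 in Prx-cKO (0.13 ± 0.19), with overlapping groups.

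Of the 14 other family genes tested in the forelimb, 0 passed in edgeR and 4 in DESeq2, 3 higher and 1 lower in Prx-cKO. Over the 14 genes the median log2 fold change was 0.20, with 9 higher and 5 lower, against -0.03 over all genes. Bax was 93.1 and 80.8 CPM in WT and 180 and 241 in Prx-cKO (log2 fold change 1.28 ± 0.20, adjusted p = 0.332, edgeR, n = 2 per group). Pmaip1 was 23.3 and 22.6 CPM against 41.8 and 45.5 (0.93 ± 0.16, adjusted p = 0.332), Bbc3, which encodes the BH3-only protein Puma, was 11.3 and 8.05 against 18.2 and 20.2 (1.00 ± 0.25, adjusted p = 0.414), and Bmf was 60.6 and 60.2 against 34.9 and 38.4 (-0.72 ± 0.15, adjusted p = 0.385). The libraries of these 4 genes did not overlap between genotypes, as was so for 43.2% of all genes. All 4 passed in DESeq2, where 1.97% of all genes did (adjusted p = 0.000102 for Bax, 0.00157 for Pmaip1, 0.0476 for Bbc3 and 0.0187 for Bmf). These 4 are named because DESeq2 called them, a choice made after their values were seen, so nothing further is read from these calls. Of the 14 genes, 5 were under an unadjusted p of 0.05 in edgeR, against the 10.5% of all genes. With WT replicate 1 left out, Bax and Bbc3 also passed in edgeR. The ratio of Bax to Bcl2 in CPM was 3.28 and 2.57 in the WT libraries and 9.17 and 13.3 in Prx-cKO. Both genes of this ratio were chosen with their values known, and Bcl2 is a small part of the survival transcripts. The sum of the 7 survival transcripts was 77.0 and 74.1 CPM per kb in WT and 70.7 and 82.2 in Prx-cKO, with overlap. Of the 24 genes of the death pathway and 18 regulators, 0 passed in either tool, with 5 and 1 under an unadjusted p of 0.05 in edgeR against the same 10.5%. The sum of 7 limb mesenchyme markers was 1372 and 1566 CPM in WT and 1014 and 1088 in Prx-cKO, and that of 4 muscle markers 114 and 111 against 311 and 193; their part in these differences was not tested.

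**Figure D4:**
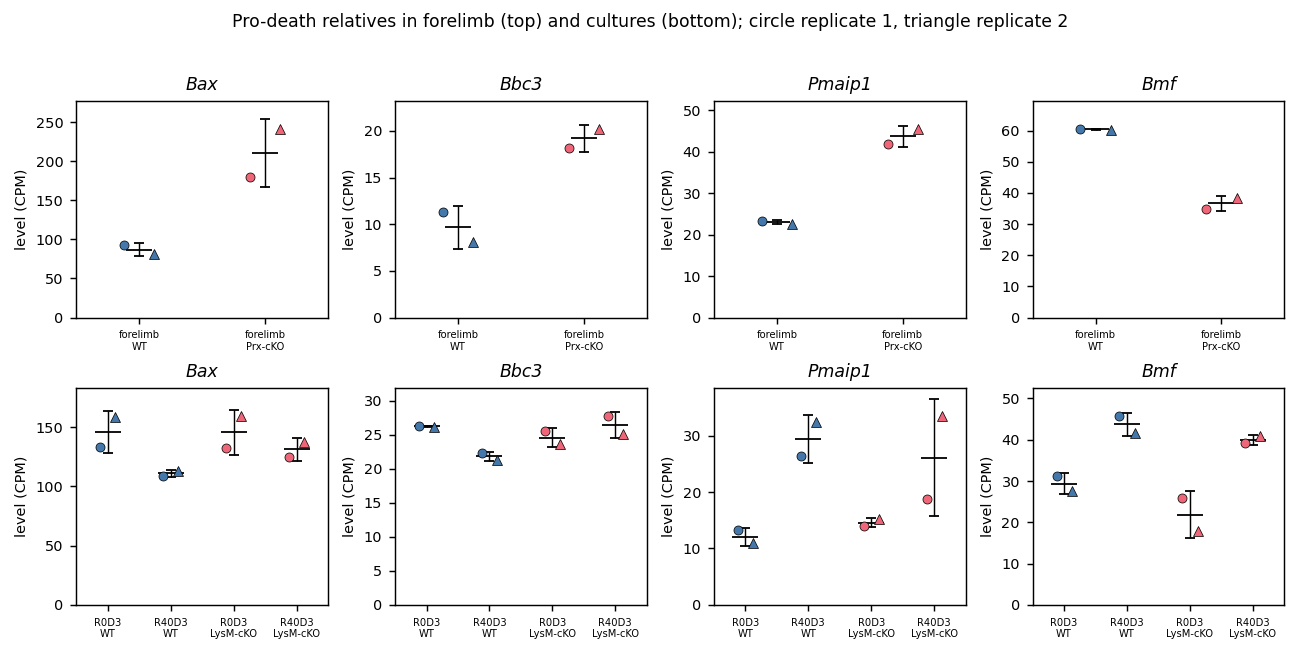
Level in CPM (vertical axes, linear from 0) of Bax, Bbc3, Pmaip1 and Bmf in the forelimb (top row) and the cultures (bottom row); circles are replicate 1, triangles replicate 2, bars the mean ± SD, blue WT and red knockout. In the forelimb Bax is at 80.8 and 93.1 in WT and at 180 and 241 in Prx-cKO, and in R40D3 cultures it is at 109 and 113 in WT and at 124 and 138 in LysM-cKO.

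Genes whose level followed each member most closely over the 8 culture libraries were ranked by Pearson's r of log2 CPM, given as a description with no p, since the R0D3 and R40D3 libraries form separate sets and genes that differ between them correlate for that alone. For Bcl2a1b the closest were Mmp12, a macrophage elastase gene (r = 0.995, 91.7 to 1130 CPM), Mamdc2 (0.988) and Rhoc (0.988). For Bad they were Ndufa1 (0.992), Coa7 (0.990) and Ndufa8 (0.990), which encode a subunit, an assembly factor and another subunit of the mitochondrial respiratory chain. For Bcl2l1 they were Rmi1, Tpm3 and Aprt (0.991 to 0.992), for Bcl2l11 Plekha1, Aplp2 and Tmcc3 (0.985 to 0.995), and for Bid Wbp2, Cep19 and Mylip (0.993 to 0.995). For Mcl1, which differed little between the conditions, the highest r was 0.952, with Adipor2, and for Bcl2l2 it was 0.952, with Flvcr1.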

How the data were processed

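Read counts per Ensembl gene, whole numbers with no normalization, were deposited by the authors as 3 tables: all forelimb libraries, replicate 1 of the cultures and replicate 2 of the cultures. Per the labels' protocols, RNA was extracted with TRIzol and libraries were made with an mRNA kit. The submitters' processing notes name FastQC 0.11.2, Trimmomatic 0.36, HISAT2 2.1.0, DESeq2 1.12.4 and GRCm38; the counting tool, annotation and use of strand are not given in the sources used here. Symbols, positions and exonic lengths were taken from GENCODE M21, whose gene models need not be those the authors counted.

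Counts were filtered with filterByExpr, scaled by TMM and fitted by group means with the quasi-likelihood test of edgeR 4.0.16 (R 4.3.3, legacy = FALSE), two-sided, with Benjamini-Hochberg adjustment over all genes and a threshold of 0.05. The 4 forelimb libraries were fitted alone (19987 genes) and the 8 cultures together (14030 genes). The same steps were run on simulated data for the forelimb comparison and for WT R40D3 against R0D3. The planted changes were large and no replicate effect was shared among groups. That run therefore does not show how the steps perform on small changes or with such effects. DESeq2 1.42.0, a replicate block, other scalings and filters, summed Bcl2a1 rows, added overlapping partners and left-out libraries were alternatives.

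Same-numbered culture libraries deviated together (r = 0.343 to 0.609 over the 6 pairs of groups, across genes), so block values stand beside results they change. In each group the 2 libraries differed beyond what sampling of reads gives. The members, the gene lists and the tests were chosen with earlier results of these data known. Named genes were all members, Impdh2 and, from each other list, at most 5 genes per comparison past the threshold, smallest p first; any others are said to be chosen after their values were seen. Promoter sequences for all 10 members come from RefSeq.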

Additional observations from a re-analysis of the deposited data

Results flagged for a closer look

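The following values had opposite signs without overlap of the libraries in 2 tissues, and in each case the difference between tissues was not tested. Libraries did not overlap for 43.2% of all genes in the forelimb, 38.7% at R40D3 and 32.3% at R0D3. Bcl2 was lower in the Prx-cKO forelimb (log2 fold change -0.67 ± 0.18 SE). In LysM-cKO cultures it was higher at R0D3 (0.50 ± 0.21, but 0.11 without LysM-cKO replicate 2). At R40D3 it was 0.044 ± 0.22, less than its SE. Bcl2a1b was higher in the Prx-cKO forelimb (0.83 ± 0.64, on 5 to 18 counts per library). It was lower in LysM-cKO cultures at R40D3 (-0.21 ± 0.10) and at R0D3 (-0.22 ± 0.10). None of the 6 values from all libraries passed the edgeR threshold.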

How the results depend on the processing

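Groups of 2 libraries limited every call. The number of members called between R40D3 and R0D3, 6 in each genotype, was 3 to 4 in WT and 2 to 4 in LysM-cKO when 1 library was left out, and 8 in WT and 2 in LysM-cKO when only the 4 libraries compared were fitted. With the replicate block the members called were 7 in each genotype (Bad added), and the block changed no other call of a member. Of the 600 member log2 fold changes under other settings, 598 moved by less than the replicate spread and no called one changed sign. For left-out libraries the first outcome was nearly fixed in advance. The spread comes from the same 2 libraries per group, and leaving out 1 moves the mean by less than that. The 598 is therefore not read as a sign of stability.

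Over all genes, the block raised the count of calls from 2367 to 3977 in WT and from 1422 to 2983 in LysM-cKO; fitting only the 4 libraries compared gave 2796 in WT and 533 in LysM-cKO, and leaving out 1 library gave 689 to 1699 in WT and 399 to 1317 in LysM-cKO. For LysM-cKO against WT, the 2 calls at R40D3 became 30 with the block, 19 with DESeq2, and 0 without TMM scaling or with only the 4 libraries compared, and the 2 calls at R0D3 became 3 with the block, 7 with DESeq2, and 0 with only the 4 libraries compared; the cause was not tested. DESeq2 gave 393 calls against 0 in the forelimb, where same-numbered libraries share only a number (r = 0.261) and the block left 0 calls; without WT replicate 1 edgeR gave 603 calls and without WT replicate 2 it gave 104. Of the other lists, left-out libraries moved the pathway calls from 7 to between 3 and 7 in WT and from 5 to between 2 and 6 in LysM-cKO, the other family calls from 3 to between 0 and 1 in WT and 0 and 3 in LysM-cKO, and the regulator calls from 7 to between 1 and 3 in WT and from 2 to between 1 and 2 in LysM-cKO. Only the 4 compared libraries gave 6 family calls in WT and 0 in LysM-cKO, and no filter gave 1 in LysM-cKO. Depth limits Bcl2a1a and Bcl2a1d in the forelimb and Bcl2a1a in the cultures. Adding the counts of overlapping same-strand genes was chosen after seeing the data.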
